A study of Mus musculus with 6 samples.

Results

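The genes described here encode the subunits of the mitochondrial respiratory chain and of ATP synthase, together with the assembly factors that share their name stems. They were taken as all genes whose symbol starts with Nduf, Sdha to Sdhd, Uqcr, Cox followed by a digit, or Atp5, leaving out Ndufa4, Ndufa4l2, Cox4i1 and Cox4i2. Membership rested on the symbol alone and used no measured value. This gave 97 of the 19938 genes tested, of which 77 encode subunits and 20 encode assembly factors. The subunits comprised 34 genes of complex I, 4 of complex II, 8 of complex III, 14 of complex IV and 17 of ATP synthase. Ndufb4, Cox7c and Cox16 did not enter, since no probe set carried one of these symbols alone.

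The respiratory chain passes electrons from NADH and succinate to oxygen. Complex I oxidises NADH, complex II oxidises succinate, complex III passes electrons from ubiquinol to cytochrome c, and complex IV reduces oxygen. Complexes I, III and IV pump protons across the inner mitochondrial membrane, and ATP synthase uses the returning protons to make ATP. Most subunits are encoded in the nucleus, while a small set of core subunits is encoded in mitochondrial DNA. Several subunits of complex IV have a second gene that is used mainly in heart and skeletal muscle or in testis. Naive mouse embryonic stem (ES) cells use both glycolysis and respiration.

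The series asked how vitamin C changes the transcripts of mouse ES cells, and its title ties the question to DNA methylation, which these arrays did not measure. The 3 vitamin C arrays held RNA of cells given L-ascorbic acid 2-phosphate at 200 μg/ml for 72 hours, and the 3 untreated arrays held RNA of cells grown without it. Both groups were Oct4-GiP ES cells kept on gelatin-coated plates in N2B27, a serum-free medium, with 1000 U/ml of the cytokine LIF, 1 μM of PD0325901 (a MEK inhibitor) and 3 μM of CHIR99021 (a GSK3β inhibitor). The design text calls the 3 cultures of each group biological triplicates. All arrays carry the same cell label, so the spread does not cover differences between ES cell lines. The deposited values are log2 signals, and a value for one probe set cannot be set against that of another as an amount of RNA. Percentiles and array medians given below place a gene by its signal only. Differences are given as vitamin C minus untreated on the log2 scale with the moderated standard error (SE), and a gene was called at a limma Benjamini-Hochberg adjusted p under 0.05 over all 19938 genes.

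Correlations between arrays were 0.995 to 0.996 within a group and 0.989 to 0.990 between groups, and array medians lay between 5.97 and 5.99. Of 10 ES cell markers, 3 rose and 0 fell, where 5.75% of all genes tested rose and 7.40% fell. The summed log2 signals of the markers were 104.3 to 104.7 on the vitamin C arrays and 103.6 to 103.9 on the untreated arrays. Pou5f1, which encodes the pluripotency factor Oct4, read 11.16, 11.18 and 11.09 on the vitamin C arrays and 11.24, 11.26 and 11.29 on the untreated arrays (difference -0.12, limma adjusted p = 0.235). All 10 markers had probe sets, but no detection call was used, so their presence was read only from signal. The pluripotency factor Nanog rose by 0.29 (limma adjusted p = 0.0168). The arrays hold bulk RNA, so fewer cells of a type and less RNA per cell cannot be told apart.

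With vitamin C, most subunit genes differed little between the groups, and the largest changes lay in tissue isoforms of complex IV. Of the 97 genes, 11 were called, against 13.2% of all genes tested. The 2 that rose, against 5.75% of all genes, were Cox7b2 and Cox6a2. The 9 that fell, against 7.40% of all genes, were Ndufv3, Sdha, Sdhc, Uqcrfs1, Cox6b2, Cox7a1, Ndufaf3, Sdhaf4 and Cox14. The shares of these genes called were 11.3% in either direction, 2.06% higher and 9.28% lower.

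The median difference of the 77 subunits was 0.02, against 0.01 over all genes tested. Leaving out the 6 tissue isoforms of complex IV, 71 subunits remained, with a median of 0.02 and a range of -0.49 to 0.21. Of the 71, 0 were called higher and 4 lower (5.63%), against 5.75% and 7.40% of all genes tested. For 48 of these 71 the 95% confidence interval of the difference lay inside 1.2-fold either way, and for 70 of 71 it lay inside 1.5-fold. Over all genes tested, 26.3% and 87.6% of intervals met these bounds. The 71 subunits were bright, at a median percentile of 98.2 among the mean signals of all genes, and their median SE was 0.061. The exception to the 1.5-fold bound was Ndufv3. In simulated arrays the test called 7.6% of bright genes changed by 1.2-fold and 92.8% of those changed by 1.5-fold, so a gene that did not pass may still differ by a small amount. The arrays of the 2 groups did not overlap for 52 of the 97 genes, 22 higher and 30 lower with vitamin C, against 35.0% of all genes, 16.8% higher and 18.2% lower. The median SE was 0.063 over the 97 genes and 0.084 over all genes. The part of this precision in the interval shares and in the share without overlap was not tested.

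The number of calls rested on the model of the spread. With a trended and robust spread model in limma, 13 subunits were called higher and 18 lower, where the default model called 2 higher and 6 lower. Under that model 8.68% of all genes were called higher and 12.1% lower. An ordinary linear model per gene called 4 subunits higher and 7 lower, against 3.35% and 4.40% of all genes. With the genes below the median mean signal left out, 5 of 75 subunits were called higher and 9 lower, against 13.2% and 22.5% of the 9969 genes tested. At an adjusted p under 0.01 the default model called 2 subunits higher and 4 lower, against 2.03% and 2.49% of all genes.

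**Figure D1:**
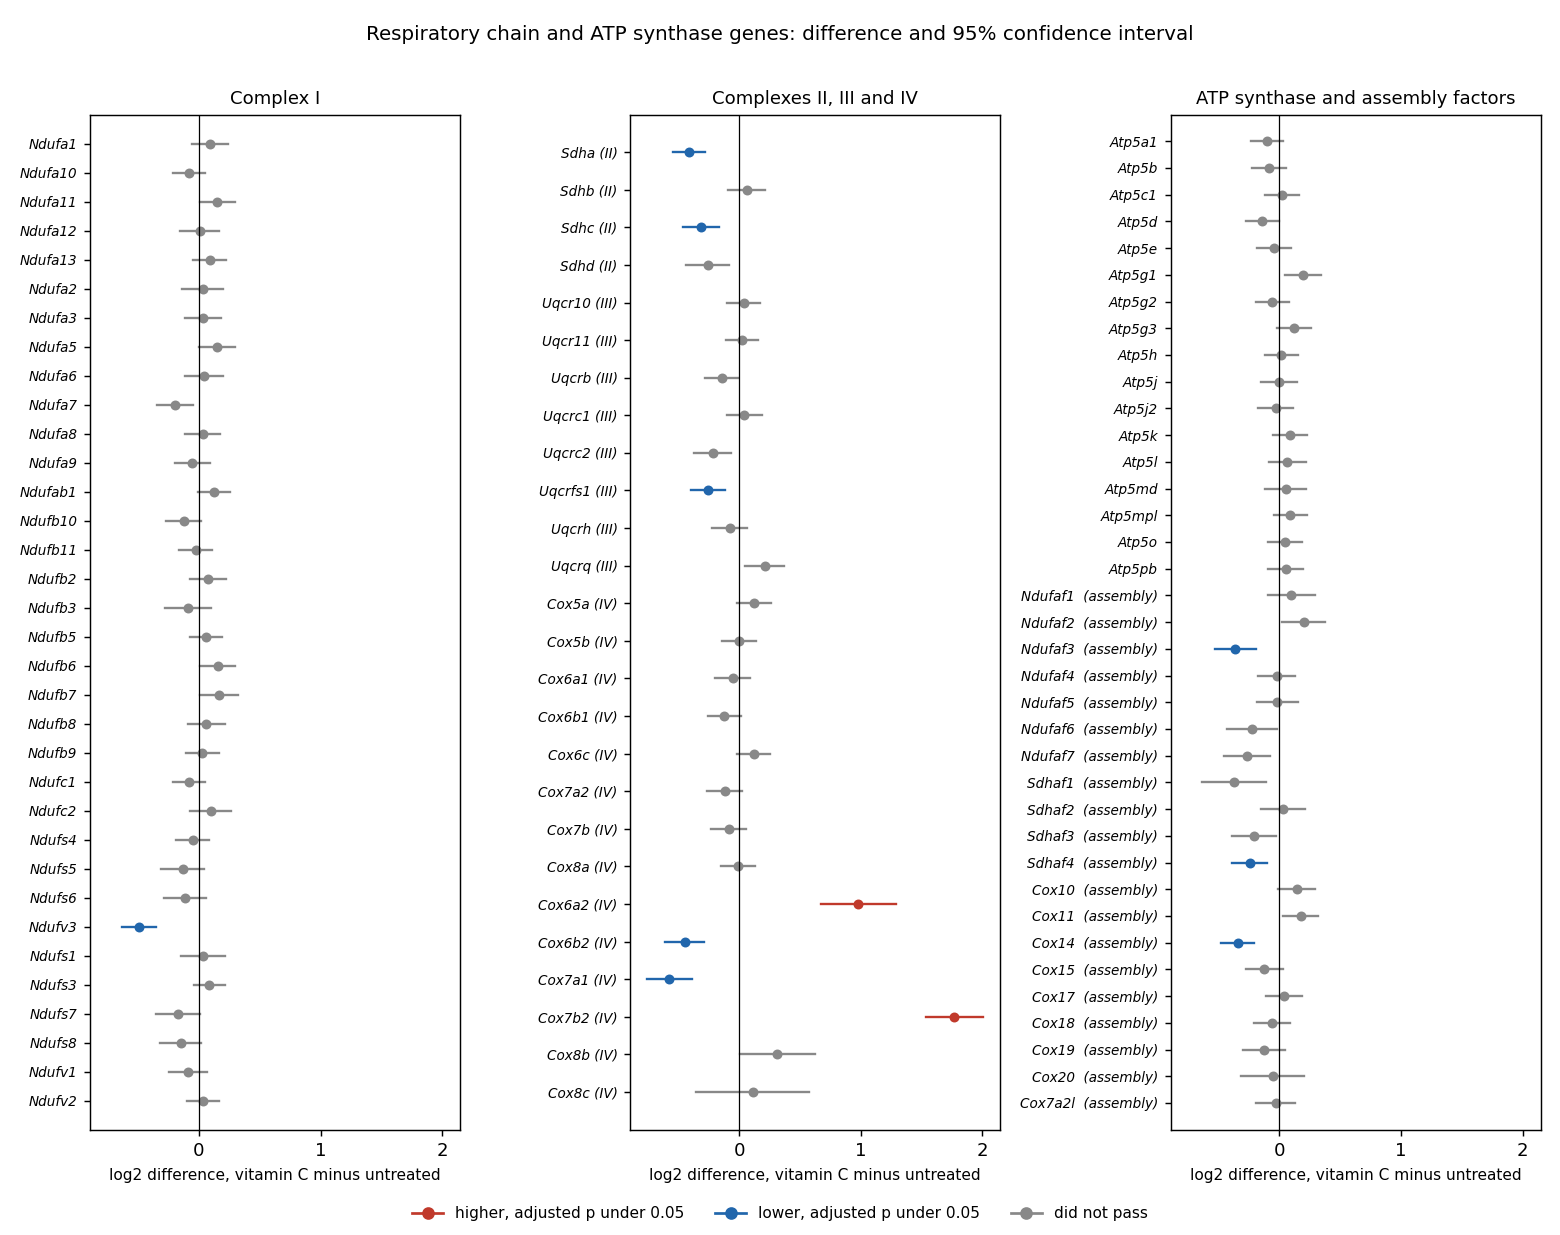
The log2 difference, vitamin C minus untreated, is plotted for each of the 97 genes with its 95% confidence interval, by complex, with assembly factors in the right panel. Red points rose, blue points fell at a limma adjusted p under 0.05, and grey points did not pass; Cox7b2 at 1.77 and Cox6a2 at 0.98 lie far to the right of the others.

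Complex I is the NADH dehydrogenase, built from core subunits that carry the redox centres and from accessory subunits around them. Of its 34 genes, 0 were called higher and 1 lower (2.94%), against 5.75% and 7.40% of all genes tested. The median difference was 0.03. Ndufv3, an accessory subunit of the NADH-binding flavoprotein module, read 9.41, 9.44 and 9.49 on the vitamin C arrays and 9.95, 9.95 and 9.92 on the untreated arrays. The 2 groups stood clear of each other, with every vitamin C array below every untreated array. Ndufv3 fell by 0.49 ± 0.06 (SE, limma adjusted p = 0.00278), a 1.41-fold lower signal. It was called in all 9 alternative settings and with each of the 6 arrays left out in turn.

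None of the 6 core subunits of complex I measured here was called, against 13.2% of all genes tested. Ndufv1 and Ndufv2, which with Ndufv3 make up the flavoprotein part that takes electrons from NADH, differed by -0.09 and 0.03 (limma adjusted p = 0.432 and 0.764). Ndufs1, which carries iron-sulphur clusters, and Ndufs3, of the peripheral arm, differed by 0.04 and 0.09 (limma adjusted p = 0.799 and 0.350). Ndufs7 and Ndufs8, iron-sulphur subunits near the ubiquinone site, differed by -0.17 and -0.15 (limma adjusted p = 0.195 and 0.215). The 95% interval for Ndufs7 ran from -0.35 to 0.01 and that for Ndufs8 from -0.31 to 0.02. The largest positive difference in complex I was that of the accessory subunit Ndufb7, 0.17 ± 0.07 (SE, limma adjusted p = 0.147). Among the 28 accessory subunits, the other 27 were not called, and differences among all 34 genes ran from -0.49 to 0.17.

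Complex II, succinate dehydrogenase, is the one complex of the chain that also works in the tricarboxylic acid (TCA) cycle, and all its subunits are nuclear-encoded. Of its 4 genes, 0 were called higher and 2 lower (50%), against 5.75% and 7.40% of all genes tested. The median difference was -0.28. Sdha, the flavoprotein that oxidises succinate, read 9.25, 9.23 and 9.21 on the vitamin C arrays and 9.61, 9.63 and 9.68 on the untreated arrays. Sdhc, a membrane anchor that binds ubiquinone with Sdhd, read 10.38, 10.45 and 10.49 on the vitamin C arrays and 10.70, 10.75 and 10.80 on the untreated arrays. For both genes all 3 vitamin C arrays were below all 3 untreated arrays. Sdha fell by 0.41 ± 0.06 (SE, limma adjusted p = 0.00527) and Sdhc by 0.31 ± 0.06 (SE, limma adjusted p = 0.0204).

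The other membrane anchor, Sdhd, read 9.45, 9.48 and 9.30 on the vitamin C arrays and 9.64, 9.62 and 9.75 on the untreated arrays. Its groups did not overlap, but its difference of -0.26 ± 0.08 (SE) did not pass (limma adjusted p = 0.0662). Sdhb, the iron-sulphur subunit, read 10.27, 10.27 and 10.39 on the vitamin C arrays and 10.21, 10.25 and 10.28 on the untreated arrays. Its groups overlapped, with a difference of 0.06 and a 95% interval from -0.09 to 0.22 (limma adjusted p = 0.563). The Sdhc call was lost with vitamin C replicate 1 or 2 or untreated replicate 2 or 3 left out (limma adjusted p = 0.0674, 0.0569, 0.0613 and 0.0703).

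In complex III, the cytochrome bc1 complex, 0 of 8 genes were called higher and 1 lower, against 5.75% and 7.40% of all genes tested. The median difference was -0.03. Uqcrfs1, the Rieske iron-sulphur protein that passes electrons to cytochrome c1, read 9.45, 9.55 and 9.52 on the vitamin C arrays and 9.76, 9.77 and 9.75 on the untreated arrays. It fell by 0.25 ± 0.06 (SE, limma adjusted p = 0.0323). All vitamin C arrays were below all untreated arrays, but with any single array left out the adjusted p lay between 0.0603 and 0.0938. The core proteins differed by 0.04 (Uqcrc1, limma adjusted p = 0.683) and -0.22 (Uqcrc2, limma adjusted p = 0.0695).

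The smaller subunits of complex III did not pass either. Uqcrq had the largest positive difference of the complex, 0.21 ± 0.07 (SE, limma adjusted p = 0.0890), with 10.62, 10.76 and 10.79 on the vitamin C arrays and 10.55, 10.50 and 10.49 on the untreated arrays. Uqcrb differed by -0.14 (limma adjusted p = 0.157), and its 3 probe sets all lay between -0.16 and -0.13. Uqcrh, the hinge protein, differed by -0.08, Uqcr10 by 0.04 and Uqcr11 by 0.02 (limma adjusted p = 0.438, 0.733 and 0.831).

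Complex IV, cytochrome c oxidase, fell into a ubiquitous set and a set of tissue isoforms. Among the 8 ubiquitous subunits measured here, 0 were called in either direction, against 13.2% of all genes tested. Their differences ran from -0.12 to 0.12. All 8 intervals lay inside 1.5-fold and 7 of them inside 1.2-fold. Of the 6 tissue isoforms, 2 rose, 2 fell and 2 were not called, where 5.75% of all genes tested rose and 7.40% fell. Of the 6, Cox6a2, Cox7a1 and Cox8b are the heart and skeletal muscle isoforms and Cox6b2, Cox7b2 and Cox8c are expressed mainly in testis. Untreated means of Cox6a2, Cox8b and Cox8c were 5.81, 5.09 and 5.65, below the untreated array medians of 5.97 to 5.98. Those of Cox6b2, Cox7a1 and Cox7b2 were 10.85, 10.27 and 6.41, above these medians. No detection call was used, so presence of the dimmer isoforms was not tested.

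Cox7b2, the second gene for subunit VIIb, read 8.16, 8.17 and 8.21 on the vitamin C arrays and 6.51, 6.54 and 6.18 on the untreated arrays. Its lowest vitamin C array lay above its highest untreated array by a wide gap relative to the spread within either group. Cox7b2 rose by 1.77 ± 0.10 (SE, limma adjusted p = 0.000152), a 3.41-fold higher signal. Cox6a2, the muscle isoform of subunit VIa, read 6.51, 6.96 and 6.90 on the vitamin C arrays and 5.96, 5.68 and 5.80 on the untreated arrays, again without overlap. It rose by 0.98 ± 0.13 (SE, limma adjusted p = 0.0045), a 1.97-fold higher signal.

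Cox7a1, the muscle isoform of subunit VIIa, read 9.84, 9.58 and 9.69 on the vitamin C arrays and 10.26, 10.30 and 10.26 on the untreated arrays. Cox6b2, the testis isoform of subunit VIb, read 10.44, 10.33 and 10.43 on the vitamin C arrays and 10.85, 10.78 and 10.91 on the untreated arrays. Both had all vitamin C arrays below all untreated arrays. Cox7a1 fell by 0.57 ± 0.08 (SE, limma adjusted p = 0.00489) and Cox6b2 by 0.45 ± 0.07 (SE, limma adjusted p = 0.00672). The muscle isoforms and the testis isoforms thus each held one gene that rose and one that fell.

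Cox8b read 5.33, 5.47 and 5.40 on the vitamin C arrays and 5.20, 5.29 and 4.77 on the untreated arrays, and its difference of 0.31 ± 0.13 (SE) did not pass (limma adjusted p = 0.167). Cox8c read 5.67, 5.62 and 5.99 on the vitamin C arrays and 5.58, 6.09 and 5.29 on the untreated arrays. Its groups overlapped, its difference was 0.11 ± 0.20 (SE), and its 95% interval of -0.35 to 0.58 was the widest among the isoforms (limma adjusted p = 0.760).

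**Figure D2:**
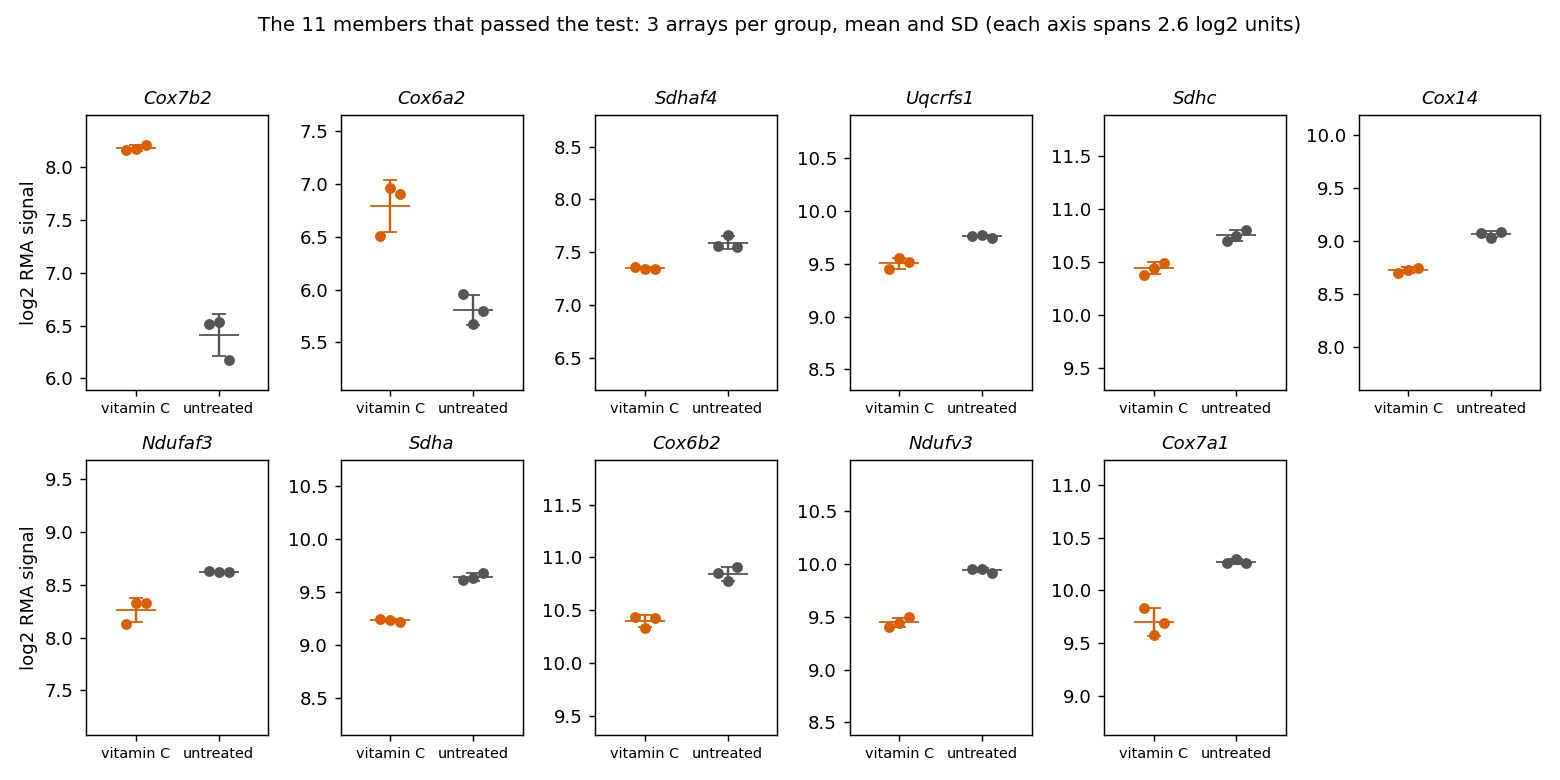
Log2 signals of the 11 called genes are drawn as 1 point per array, vitamin C left of untreated, each gene in a panel of its own. In every panel the points of the 2 groups do not overlap; Cox7b2 has the widest gap, with vitamin C arrays at 8.16 to 8.21 and untreated arrays at 6.18 to 6.54.

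Each tissue isoform was set against the ubiquitous gene for the same subunit on the same arrays. None of the ubiquitous partners passed: Cox7b differed by -0.09, Cox6a1 by -0.05, Cox7a2 by -0.12, Cox6b1 by -0.12 and Cox8a by -0.01. Centred on the untreated mean, Cox7b2 minus Cox7b lay at 1.77 to 1.90 on the vitamin C arrays and at -0.21 to 0.15 on the untreated arrays. The isoform-minus-partner value was 1.86 larger with vitamin C for Cox7b2 over Cox7b and 1.03 larger for Cox6a2 over Cox6a1. It changed by -0.45 for Cox7a1 over Cox7a2 and by -0.33 for Cox6b2 over Cox6b1. For Cox8b over Cox8a it was 0.32 and for Cox8c over Cox8a 0.12. The groups did not overlap for any of these pairs but Cox8c. Of all single genes tested 35.0% had no overlap, and the share among pairs of genes was not computed. The exact two-sided permutation test over the 20 splits of 6 arrays gave p = 0.1 for the 5 pairs without overlap, the smallest p that 3 against 3 arrays allow, and p = 0.7 for Cox8c. Adjusted over the 8 pairs compared, with the ATP synthase pairs below, these were 0.114 and 0.7.

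**Figure D3:**
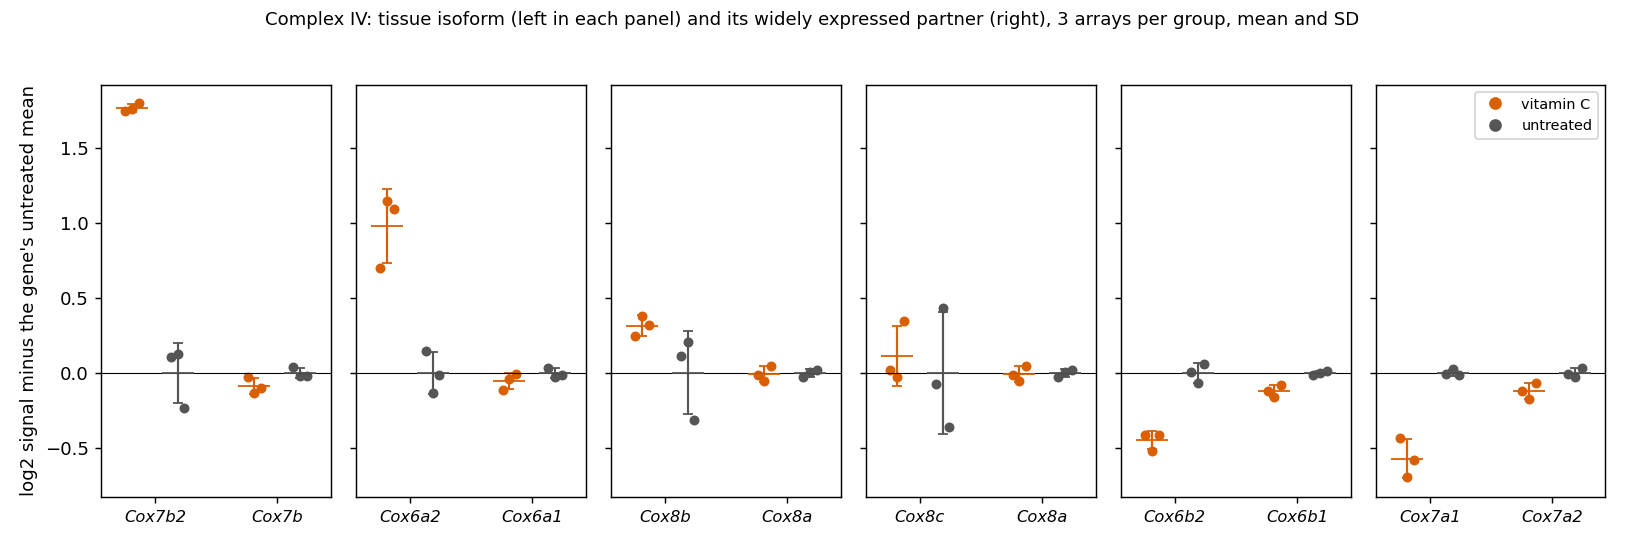
Log2 signals minus the gene's untreated mean are drawn for 6 tissue isoforms of complex IV (left in each panel) and their ubiquitous partners (right), 1 point per array with mean and SD, vitamin C left of untreated. Cox7b2 stands at 1.77 and Cox6a2 at 0.98 in vitamin C, Cox7a1 at -0.57 and Cox6b2 at -0.45, while all partners lie between -0.12 and -0.01.

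Promoter sequences are shown for the subunit VIIb and VIIa pairs, because Cox7b2 had the largest rise and Cox7a1 the largest fall among the 6 tissue isoforms. They are RefSeq sequences of build GRCm38.p6, 300 bases around the gene start, most of them upstream, read 5′ to 3′ on the gene's strand, with CpG dinucleotides in capitals. Cox7b2 lies at chr5:71548156-71548455 on the minus strand and Cox7b at chrX:106015450-106015749 on the plus strand. Cox7a1 lies at chr7:30183921-30184220 on the plus strand and Cox7a2 at chr9:79759804-79760103 on the minus strand.
Cox7b2: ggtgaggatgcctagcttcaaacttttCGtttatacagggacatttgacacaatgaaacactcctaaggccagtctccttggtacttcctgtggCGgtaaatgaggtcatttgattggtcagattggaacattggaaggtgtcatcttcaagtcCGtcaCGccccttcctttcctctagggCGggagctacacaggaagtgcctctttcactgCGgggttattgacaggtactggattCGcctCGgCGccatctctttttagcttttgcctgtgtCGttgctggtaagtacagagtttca
Cox7b: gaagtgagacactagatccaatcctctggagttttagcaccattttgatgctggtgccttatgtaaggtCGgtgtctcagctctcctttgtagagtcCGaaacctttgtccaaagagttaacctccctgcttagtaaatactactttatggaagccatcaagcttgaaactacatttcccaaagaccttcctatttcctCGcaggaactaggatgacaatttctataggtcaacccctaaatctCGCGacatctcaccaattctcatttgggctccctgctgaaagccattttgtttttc
Cox7a1: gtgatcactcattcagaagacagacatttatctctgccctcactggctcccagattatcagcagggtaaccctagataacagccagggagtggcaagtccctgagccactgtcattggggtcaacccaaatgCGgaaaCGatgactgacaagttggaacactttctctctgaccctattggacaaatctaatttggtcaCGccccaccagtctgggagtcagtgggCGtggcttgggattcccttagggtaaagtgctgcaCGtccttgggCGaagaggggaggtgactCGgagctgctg
Cox7a2: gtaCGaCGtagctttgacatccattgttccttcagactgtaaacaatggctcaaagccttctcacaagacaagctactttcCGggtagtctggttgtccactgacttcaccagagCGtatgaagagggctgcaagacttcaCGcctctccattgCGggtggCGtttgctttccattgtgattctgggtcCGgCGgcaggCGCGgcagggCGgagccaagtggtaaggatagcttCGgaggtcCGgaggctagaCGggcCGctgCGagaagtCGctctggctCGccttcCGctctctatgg
The Cox7b2 window holds 10 CpG dinucleotides and the Cox7b window 5, while the Cox7a1 window holds 7 and the Cox7a2 window 20. In the subunit VIb pair, not printed, the Cox6b2 window holds 10 and the Cox6b1 window 17. The 87 promoter windows found for 82 of the 97 genes held a median of 20 CpG dinucleotides. The median over all 32851 mouse windows of the same length was 7. For the 4 tissue isoforms with a window (Cox6b2, Cox7a1, Cox7b2 and Cox8b) it was 8.5, in a range of 2 to 10.

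Short motifs, each counted on both strands, were looked for in the same windows. GCGCATGC, the core of the site bound by NRF1, a regulator of respiratory genes, was in 13.8% of the windows of these genes and in 2.71% of all windows. CCGGAAG, an ETS family core, was in 28.7% and 8.86%, and AAGATGG, a YY1 core, in 13.8% and 6.34%. ACGTG, the core of the hypoxia response element, was in 23% and 19.6%. None of the windows of the 4 tissue isoforms held the NRF1, ETS or YY1 letters. Of the 8 windows of genes that fell, 4 held ACGTG, those of Sdha, Ndufv3, Ndufaf3 and Cox7a1. A match of letters describes the window and is not a site of binding.

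Markers of other cell types were read beside the isoforms, since the muscle and testis genes of complex IV are used in other tissues. For comparison with the counts below, 5.75% of all genes tested rose and 7.40% fell. None of 6 muscle and heart markers was called, and their summed log2 signal was 33.4 to 34.4 on the vitamin C arrays and 33.0 to 33.4 on the untreated arrays. Of 10 germ cell genes, a list drawn up after values of these data were seen, 5 rose and 0 fell, with sums of 65.6 to 66.1 on the vitamin C arrays and 58.9 to 61.0 on the untreated arrays. Dazl, a germ cell RNA-binding protein, rose by 2.21 ± 0.08 (SE, limma adjusted p = 1.5e-05). Of 10 fibroblast markers 7 rose and 1 fell, with sums of 59.7 to 60.5 on the vitamin C arrays and 53.6 to 55.1 on the untreated arrays. Of 7 trophectoderm markers 1 rose and 2 fell, with sums of 43.9 to 44.4 on the vitamin C arrays and 44.6 to 45.2 on the untreated arrays. Of 7 primitive endoderm markers 2 rose and 0 fell, with sums of 41.2 to 41.6 on the vitamin C arrays and 39.5 to 40.1 on the untreated arrays. The part of these genes in the isoform differences was not tested.

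ATP synthase consists of a catalytic F1 head and a membrane-bound Fo part with connecting stalks. None of its 17 genes was called, against 13.2% of all genes tested, and their differences ran from -0.14 to 0.19 with a median of 0.03. All 17 intervals lay inside 1.5-fold, and 15 lay inside 1.2-fold. The catalytic head subunits differed by -0.10 (Atp5a1, alpha), -0.09 (Atp5b, beta) and 0.03 (Atp5c1, gamma), with limma adjusted p = 0.299, 0.380 and 0.819. The largest negative difference was that of Atp5d, the delta subunit of the head, -0.14 (limma adjusted p = 0.158). The 5 F1 genes had a median of -0.09 and the 12 Fo and stalk genes a median of 0.05, of which 10 lay above 0.

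The c ring of Fo is built from one protein encoded by 3 genes that differ in their import sequence. Atp5g1 read 12.26, 12.31 and 12.39 on the vitamin C arrays and 12.15, 12.10 and 12.12 on the untreated arrays, a difference of 0.19 ± 0.06 (SE, limma adjusted p = 0.0855). Atp5g3 differed by 0.12 (limma adjusted p = 0.232) and Atp5g2 by -0.06 (limma adjusted p = 0.550). Set against Atp5g3 on the same arrays, Atp5g1 was 0.07 higher and Atp5g2 differed by -0.18 with vitamin C. The groups did not overlap in either case (exact two-sided permutation p = 0.1 each, the smallest possible). Of all single genes tested 35.0% had no overlap. The 3 c genes are near-identical in their mature part and have processed copies in the genome, so probe sets may take up RNA of more than one copy.

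Assembly factors put the complexes together and are not part of the finished enzymes, except that Cox7a2l stays with supercomplexes. Of 20, 0 were called higher and 3 lower (15%), against 5.75% and 7.40% of all genes tested. Their median difference was -0.06. Ndufaf3, an early complex I assembly factor, read 8.13, 8.32 and 8.33 on the vitamin C arrays and 8.62, 8.62 and 8.62 on the untreated arrays. Cox14, which acts with newly made COX1 in complex IV assembly, read 8.69, 8.73 and 8.75 on the vitamin C arrays and 9.08, 9.03 and 9.08 on the untreated arrays. Sdhaf4, which helps insert the flavin-bearing Sdha, read 7.36, 7.34 and 7.34 on the vitamin C arrays and 7.56, 7.66 and 7.55 on the untreated arrays.

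All 3 had the groups apart. Ndufaf3 fell by 0.36 ± 0.07 (SE, limma adjusted p = 0.0194), Cox14 by 0.34 ± 0.06 (SE, limma adjusted p = 0.0105) and Sdhaf4 by 0.24 ± 0.06 (SE, limma adjusted p = 0.0405). A second Sdhaf4 probe set differed by -0.02, and the mean of both was not called (difference -0.13, limma adjusted p = 0.279). With any single array left out, the adjusted p of Sdhaf4 lay between 0.0808 and 0.119. Ndufaf3 was lost with untreated replicate 1, 2 or 3 left out (limma adjusted p = 0.0589, 0.0572 and 0.0599) and without moderation (adjusted p = 0.0577). Sdhaf1, the factor for iron-sulphur insertion in complex II, had the largest negative difference among assembly factors, -0.38 ± 0.11 (SE), but did not pass (limma adjusted p = 0.0707). Ndufaf2 had the largest positive one, 0.20 (limma adjusted p = 0.126).

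**Figure D4:**
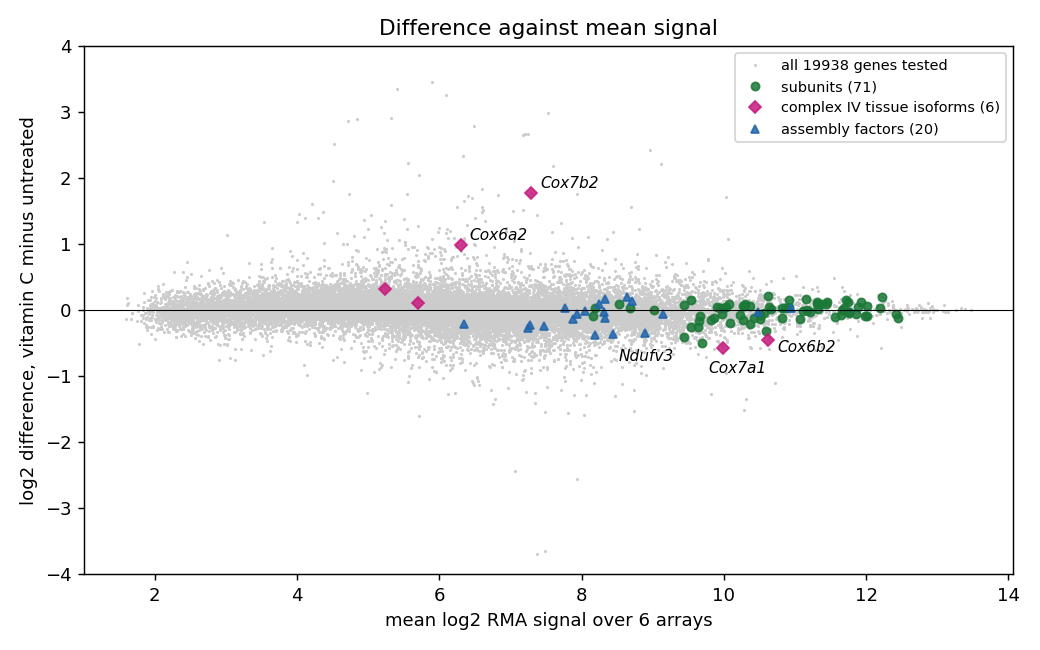
Each gene's log2 difference, vitamin C minus untreated, is plotted against its mean log2 signal over the 6 arrays, with all 19938 genes in grey. The 71 subunits lie between -0.49 and 0.21. Of the 6 tissue isoforms, Cox7b2, Cox6a2 and Cox8b lie above this range and Cox7a1 lies below it.

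Genes that work with the complexes but do not carry these name stems were read from lists drawn up by known function, with earlier results of these data in view. Of 39 other respiratory chain genes listed, 34 were measured, with a median of -0.13. Of the 34, 0 rose and 6 fell (17.6%), against 5.75% higher and 7.40% lower over all genes tested. The largest fall was that of Higd1a, a hypoxia-inducible protein that associates with complex IV, -0.56 ± 0.07 (SE, limma adjusted p = 0.00241). Uqcc2 and Coa4, assembly factors of complexes III and IV, fell by 0.38 and 0.36 (limma adjusted p = 0.0290 and 0.0353). Surf1, a complex IV assembly factor, fell by 0.25 (limma adjusted p = 0.0325). Higd1a was called with any single array left out, Surf1 in 0 of 6 such fits and Uqcc2 and Coa4 in 1 of 6 each. Cyc1, cytochrome c1, differed by -0.12 and Cycs, cytochrome c, by 0.13 (limma adjusted p = 0.240 and 0.297).

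Of 26 symbols listed for mitochondrially encoded genes, only 2 were found alone on a probe set. The 26 are entries of the list and not a count of genes. ND3, a complex I subunit, read 11.82, 11.77 and 11.79 on the vitamin C arrays and 11.34, 11.31 and 11.25 on the untreated arrays. It rose by 0.49 ± 0.06 (SE, limma adjusted p = 0.00291). A second ND3 probe set differed by 0.32 and did not pass over all probe sets (limma adjusted p = 0.0868). COX2, a complex IV subunit, differed by -0.03 (limma adjusted p = 0.808). With 2 genes, the mitochondrial genome is not described here.

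Of 22 TCA cycle and pyruvate dehydrogenase genes measured, 0 rose and 4 fell (18.2%), with a median of -0.04. The shares over all genes tested were 5.75% higher and 7.40% lower. Pdk2, a kinase that inhibits pyruvate dehydrogenase, read 6.62, 6.74 and 6.55 on the vitamin C arrays and 7.56, 7.64 and 7.88 on the untreated arrays, without overlap. It fell by 1.06 ± 0.10 (SE, limma adjusted p = 0.00106), and its relatives Pdk4 and Pdk1 fell by 0.56 and 0.37 (limma adjusted p = 0.00700 and 0.0281). Dlat, the acetyltransferase of pyruvate dehydrogenase, fell by 0.28 (limma adjusted p = 0.0324). The remaining kinase, Pdk3, differed by -0.04 (limma adjusted p = 0.730), and Pdha1, Pdhb and Pdhx, which encode other parts of the enzyme, differed by -0.02, 0.03 and 0.10 (limma adjusted p = 0.846, 0.796 and 0.418). The groups overlapped for each of these 4 genes. With an array left out, Pdk2 and Pdk4 were called in 6 of 6 fits, Pdk1 in 2 and Dlat in 1.

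Among 17 regulators of mitochondrial biogenesis, 2 rose (11.8%) and 3 fell (17.6%), with a median of -0.02. The shares over all genes tested were 5.75% higher and 7.40% lower. Yy1, a transcription factor of many respiratory genes, rose by 0.36 (limma adjusted p = 0.0161), and the other that rose was Tfb2m, a mitochondrial transcription factor. Tfb1m, a mitochondrial rRNA methyltransferase, fell by 0.43 (limma adjusted p = 0.0129). Polg2 and Polg, subunits of the mitochondrial DNA polymerase, fell by 0.50 and 0.27 (limma adjusted p = 0.0231 and 0.0377). With an array left out, Tfb1m was called in 6 of 6 fits, Yy1 in 2, Polg2 in 1 and Polg in 0. Nrf1, Tfam and Ppargc1a differed by -0.06, -0.02 and 0.11 and did not pass (limma adjusted p = 0.587, 0.890 and 0.670).

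**Figure D5:**
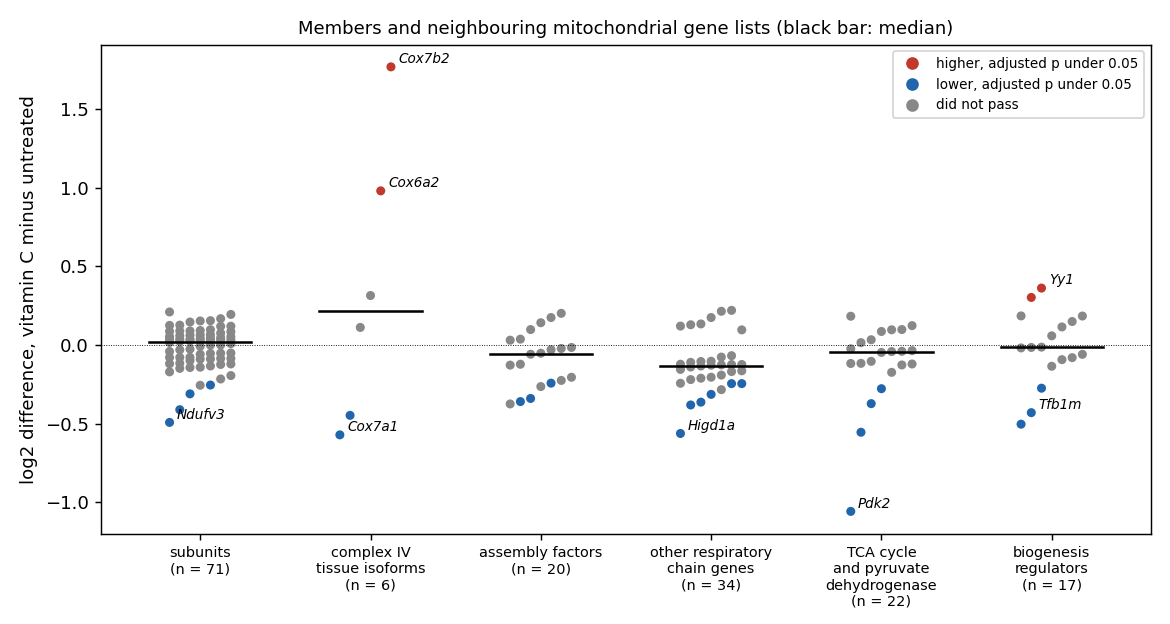
Log2 differences, vitamin C minus untreated, are drawn for the subunits, the tissue isoforms, the assembly factors and 3 lists of other mitochondrial genes, with a bar at each median. Medians lie at 0.02 for the 71 subunits, -0.06 for assembly factors and -0.13 for the other respiratory chain genes, and Pdk2 has the most negative difference at -1.06.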

How the data were processed

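RNA was measured on 6 Affymetrix arrays, 3 of vitamin C cultures and 3 of untreated cultures, grouped by the sample titles. Per the labels' protocols, total RNA was amplified with a whole-transcriptome kit and labelled with biotin. The deposited table holds log2 signals, judged from their range, and the submitters' processing notes name RMA. That method usually subtracts background, equalises the arrays' distributions and summarises probes, which hides a shift common to every gene. Its software and version were not given. No detection call was used, and with 6 arrays precision is limited by their number.

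Of 35557 probe sets, 21789 carried 1 gene symbol, 1621 several and 12147 none. For the 999 genes with several probe sets, 18 of them among the genes described, the brightest by its mean over the 6 arrays stood for the gene. Differences were fitted over 19938 genes with limma 3.58.1 in R 4.3.3 (lmFit, eBayes, no covariate, Benjamini-Hochberg). Isoform pairs were compared with an exact permutation test. Named genes were all called members, the largest difference each way in each complex, core and catalytic subunits, tissue isoforms and up to 4 called genes of each outside list, plus Cyc1, Cycs, Tfam, Nrf1, Ppargc1a, Pou5f1 and Nanog. Bcs1l, Higd2a and Tfb2m were called but fell outside that rule, and Dazl, Pdk3, Pdha1, Pdhb and Pdhx were named after their values were seen. The members, the lists and the fold bounds were chosen with earlier results of these data known.

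Data were simulated for this comparison with 19938 genes, 200 of them bright and changed. Calls were made for 7.6% of changes of 1.2-fold, 92.8% of 1.5-fold and 99.6% of 2-fold, and 3.35% of calls were false. Of the 95% intervals of bright genes, 97.9% held the true value. On the real arrays 13.2% of genes were called and the adjusted cutoff was less strict, so these shares hold only for the simulated setting. Replicate numbers were not used to pair the samples. Correlations of same-numbered deviations were 0.052, 0.0096 and -0.024, which gave no sign of pairing but cannot exclude it. Other settings changed the spread model, normalization, dim-gene filter, probe-set rule, array weights, threshold, replicate block and which arrays entered. Plots were made in matplotlib 3.10.9.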

Additional observations from a re-analysis of the deposited data

How the results depend on the processing

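At an adjusted p under 0.05, 6 of the 11 called genes were called in all 9 other fits and with each array left out: Cox7b2, Ndufv3, Sdha, Cox7a1, Cox6b2 and Cox14. Of these, 5 also passed 0.01 in the default fit, and Cox14 did not (limma adjusted p = 0.0105). Cox6a2 was lost only without moderation (an ordinary linear model per gene, fitted in limma, adjusted p = 0.0502). Ndufaf3 was lost without moderation, Uqcrfs1 and Sdhaf4 with the trend subtracted, with every probe set tested and with the replicate block, and Sdhaf4 as the mean of its probe sets. The trended and robust spread model called 13 of 77 subunits higher and 18 lower, and 2 of 20 assembly factors higher and 5 lower. Over all genes that model called 8.68% higher and 12.1% lower. Without moderation 4 of 77 subunits were higher and 7 lower, against 3.35% and 4.40% of all genes. With dim genes left out, 9969 genes were tested, of which 13.2% were higher and 22.5% lower. Of the 75 subunits kept, 5 were higher and 9 lower, and of the 20 assembly factors 2 were higher and 6 lower. At an adjusted p under 0.01, 0 assembly factors were lower, against 2.49% of all genes. The lower-count of assembly factors ran from 1 to 2 of 20 with an array left out, being 1 without untreated replicate 1 or 3. In these fits 4.11% to 4.96% of all genes were lower, against 7.40% with all 6 arrays. Subtracting the trend against mean signal moved the subunit median to 0.041, and with an array left out it ran from 0.0030 to 0.030. With the replicate block, 2 subunits were higher and 5 lower, 0 assembly factors were higher and 2 lower (3.83% and 4.81% of all genes), and the subunit median was 0.023; numbers share no stated culture, so this is given once. Among the named genes, uncalled values changed sign for Ndufs1 (-0.026 to 0.092 with an array left out), Cox8a (-0.036 to 0.015, and 0.0073 with the trend subtracted), Cox8c (-0.069 to 0.33), Tfam (-0.054 to 0.035, and 0.026 with the trend subtracted), COX2 (-0.050 to 0.00088) and Cycs (-0.053 as the mean of its probe sets), and so did those of 8 other subunits or assembly factors. The cause was not tested. Of the genes without these name stems, ND3, Higd1a, Pdk2 and Pdk4 were called in every fit, while Polg and Surf1 were lost in all 6 fits with an array left out and Yy1, Uqcc2, Coa4, Pdk1, Dlat, Polg2 and Nanog in 4 or 5.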

Other observations

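Probe sets that carry several symbols were kept out of the gene results. The 3 probe sets of Cox7c, a ubiquitous complex IV subunit that shares its probe sets with a predicted gene, differed by 0.017 to 0.019, vitamin C minus untreated. The 2 probe sets shared by Ndufb4 and a copy of it differed by 0.020 and 0.037. A probe set shared by Ndufs5 and its pseudogene differed by 0.0039. The Cox16 probe set, which also carries a predicted gene, differed by 0.17 (limma adjusted p over all probe sets = 0.407).

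Genes with several probe sets mostly gave like values. The 6 probe sets of Atp5l ran from 0.066 to 0.076, and the 2 of Cox7b were at -0.09 and -0.04.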
